A study of Homo sapiens with 4 samples.

Results

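The genes described are 10 immediate early and ERK feedback genes, of 60880 genes in the count table. They were given as a list of symbols and matched to the Ensembl identifiers of the table, where each of the 10 symbols had 1 entry. They are the transcription factor EGR1, the AP-1 subunits FOS, FOSL2, JUN, JUNB and JUND, the dual-specificity phosphatases DUSP4 and DUSP6, and the Sprouty proteins SPRY1 and SPRY2. RNA-Seq was performed on LNCaP95, an androgen-independent subline of the LNCaP prostate cancer cell line (labelled WT, replicates 1 and 2), and on LN95(KO), its derivative with a CRISPR knockout of UGT2B17, an enzyme that attaches glucuronic acid to androgens (replicates 3 and 4). The culture medium of both groups held charcoal-stripped serum, which is depleted of steroid hormones, and no treatment was given. All 4 libraries carry LN95 as their cell line label, the series description names LNCaP for the knockout, and how many knockout clones were used is not stated in the sources used here. Nothing in the labels says whether the libraries of a group came from separate cultures, so p-values measure the spread between these libraries, which may be technical.

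Growth factor receptors signal through RAS, RAF and MEK to the kinase ERK. ERK phosphorylates ternary complex factors such as ELK1, which act with SRF at CArG boxes to switch on immediate early genes without new protein synthesis. EGR1 is a zinc finger factor of this class, and FOS and JUN family proteins pair into AP-1 dimers. The same signal induces its own brakes. DUSP4 and DUSP6 are phosphatases that inactivate ERK in the nucleus and the cytoplasm, respectively, and Sprouty proteins act between the receptor and RAF. Many of these RNAs are short-lived, and the feedback genes are often read as a measure of ERK output.

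The stretches of 250 bases before annotated transcript starts are shown for EGR1, FOS and SPRY2. These are the genes of the 10 with the largest falls in LN95(KO). They were taken from RefSeq on GRCh38.p14, written 5′ to 3′ on the strand of the gene, with motif matches in capitals. Of the 10 genes, 9 were searched, with 12 windows. DUSP4 was left out of the search, so whether its window holds a motif was not tested. SPRY2 had several windows, and the one with motif matches is shown.
EGR1, chr5:138465229-138465478, plus strand: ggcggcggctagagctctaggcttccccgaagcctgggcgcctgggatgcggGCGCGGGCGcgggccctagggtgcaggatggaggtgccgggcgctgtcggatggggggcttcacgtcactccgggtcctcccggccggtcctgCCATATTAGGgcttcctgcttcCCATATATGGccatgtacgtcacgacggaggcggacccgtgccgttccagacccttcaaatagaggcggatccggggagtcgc
FOS, chr14:75278578-75278827, plus strand: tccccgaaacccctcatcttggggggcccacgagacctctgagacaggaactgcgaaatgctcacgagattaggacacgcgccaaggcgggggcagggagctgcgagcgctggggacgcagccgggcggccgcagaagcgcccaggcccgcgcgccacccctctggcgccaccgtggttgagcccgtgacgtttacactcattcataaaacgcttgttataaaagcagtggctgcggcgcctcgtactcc
SPRY2, chr13:80341127-80341376, minus strand: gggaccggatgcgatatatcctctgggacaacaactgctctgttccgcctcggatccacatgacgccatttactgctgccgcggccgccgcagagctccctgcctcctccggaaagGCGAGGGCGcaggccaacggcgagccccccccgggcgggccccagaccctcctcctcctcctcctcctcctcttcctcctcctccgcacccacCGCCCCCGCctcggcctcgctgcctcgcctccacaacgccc
Capitals in EGR1 mark an EGR motif (GCGNGGGCG) and then 2 CArG boxes, and capitals in SPRY2 mark 2 EGR motifs, the second read on the opposite strand. The CArG boxes of EGR1, CCATATTAGG and CCATATATGG, lay 105 to 96 and 83 to 74 bases before the start. Both strands were searched, and no match of one motif overlapped a match of another. A CArG box was present in 1.16% of the 35116 windows of the same length, to which no exclusion by chromosome applied. Among the 9 genes searched it was present in EGR1 alone. The EGR motif was present in 8.41% of windows and in EGR1, SPRY1 and SPRY2. The cAMP response element TGACGTCA was present in 1.65% of windows and in JUND, and the AP-1 site TGANTCA in 6.57% of windows and in none of the 12. No capitals appear in FOS, since no full match to these motifs occurred within its window. Bases farther than 250 before a start were not searched, so a motif may lie there. A match describes the letters and was not tested as a binding site.

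Depth was 17330338 to 18813193 gene reads per library, and 3 counts, the limit that a count of 0 allows, corresponded to 0.163 to 0.169 CPM. CPM are gene counts divided by TMM-scaled library size (edgeR). UGT2B17 itself had 2788 and 2748 counts in the LNCaP95 libraries against 21 and 20 in LN95(KO); its log2 fold change was -7.04 (SE 0.10, edgeR adjusted p = 1.18e-18). The summed CPM of 9 luminal prostate markers was 3633 to 3660 in LNCaP95 and 3727 to 3847 in LN95(KO). The summed level was 0.163 to 0.164 against 1.02 to 1.26 CPM for 3 basal markers, 31.2 to 32.3 against 35.0 to 38.1 CPM for 6 stromal markers (DCN at 0), and 0.433 to 0.437 against 2.77 to 3.18 CPM for the endothelial markers, of which CDH5 was at 0 and PECAM1 was not matched. These sums hide genes that moved in opposite directions. COL1A1 held most of the stromal sum, at 28.4 and 28.4 CPM in LNCaP95 against 34.2 and 31.8 in LN95(KO). LUM fell from 24 and 19 counts to 0 and 0, while PDGFRB rose from 22 and 18 to 44 and 44. In LN95(KO) the basal sum was mostly KRT14, and the endothelial sum was VWF alone. Of the 9 luminal markers, 4 were higher and 5 lower in LN95(KO). The part of the basal, stromal and endothelial markers in the results that follow was not tested. Reads not aligned made up 3.85% and 3.96% of entries in LNCaP95 against 8.05% and 7.71% in LN95(KO).

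The comparison of LN95(KO) with LNCaP95 asked which of these genes differ where UGT2B17 is knocked out. EGR1, FOS, DUSP4 and SPRY2 were lower in LN95(KO), and DUSP6 and SPRY1 were higher, so that each pair of feedback inhibitors, the 2 phosphatases and the 2 Sprouty genes, moved in opposite directions. FOSL2 was higher by less than 2-fold, and JUN, JUNB and JUND did not pass the test, JUN with an adjusted p that crossed 0.05 under some alternatives given below. All 10 genes passed the filter on low counts. Calls required a fold change over 2 together with an adjusted p under 0.05 over all genes tested. Of the 10 genes, 6 were called, where the background was 18% of the 15626 genes tested. The 2 called higher compare with a background of 8.86% and the 4 called lower with 9.13%. By adjusted p alone, 7 of the 10 genes passed (background 59.8%), with 3 higher (background 29.8%) and 4 lower (background 30.1%). In 8 of the 10 genes both libraries of one group lay above both of the other (background 79.8%), a share close to that of all genes. The median log2 fold change was -0.13 over the 10 genes and -0.01 over all genes tested, and the median absolute log2 fold change was 1.14 against 0.37. The 10 genes were chosen with earlier results of these data known, so these comparisons with all genes are a description. These are bulk samples, in which fewer cells of a type and less RNA per cell cannot be told apart.

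**Figure D1:**
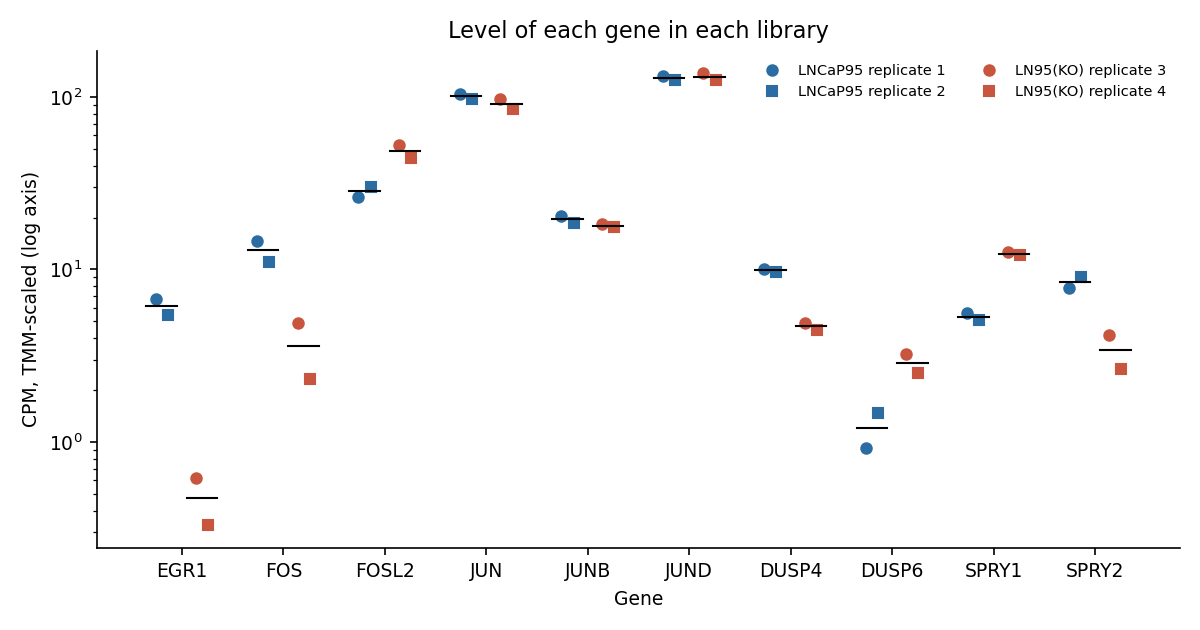
Level of the 10 genes in each of the 4 libraries, in CPM scaled by TMM factors on a log axis, with the mean of each group as a bar. The 2 LN95(KO) libraries lie below both LNCaP95 libraries for EGR1, FOS, JUNB, DUSP4 and SPRY2 and above them for FOSL2, DUSP6 and SPRY1, while the groups overlap for JUN and JUND.

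EGR1 (ENSG00000120738.7_2; GRCh37 chromosome 5, 137801168 to 137804992, plus strand, protein coding with 2 exon blocks) binds GC-rich sites in promoters. It had 125 and 100 counts in LNCaP95 replicates 1 and 2 and 11 and 6 counts in LN95(KO) replicates 3 and 4. Both LN95(KO) libraries were far below both LNCaP95 libraries and still above the limit set by a count of 0. The mean level was 6.12 ± 0.928 CPM in LNCaP95 and 0.475 ± 0.207 CPM in LN95(KO) (mean ± SD throughout, n = 2 per group). The log2 fold change was -3.67 (SE 0.29, 95% interval -4.28 to -3.07), a 12.8-fold fall with an adjusted p of 6.37e-09 (quasi-likelihood test of edgeR, Benjamini-Hochberg adjusted). This fall ranked 180 among the 15626 genes tested, ordered from the lowest log2 fold change.

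FOS, FOSL2 and the JUN genes encode the 5 AP-1 subunits studied. FOS (ENSG00000170345.9_3; chromosome 14, 75745529 to 75748933, plus strand) is the classical inducible partner of JUN. It had 271 and 203 counts in the LNCaP95 libraries against 87 and 42 in LN95(KO). Neither LN95(KO) library reached the level of either LNCaP95 library. Mean levels were 12.9 ± 2.55 CPM in LNCaP95 and 3.61 ± 1.85 CPM in LN95(KO). The log2 fold change was -1.84 (SE 0.30, 95% interval -2.56 to -1.12, edgeR adjusted p = 0.00158), a 3.58-fold fall. Leaving out LN95(KO) replicate 3 gave -2.48 and leaving out replicate 4 gave -1.39, and FOS was called in both cases.

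FOSL2 (ENSG00000075426.11_3; chromosome 2, 28615315 to 28640184, plus strand, 7 exon blocks) encodes FRA-2, a FOS family protein without the strong activation domain of FOS. It had 488 and 554 counts in the LNCaP95 libraries against 936 and 813 in LN95(KO). The groups did not overlap, and the level was higher in LN95(KO), 48.7 ± 5.89 CPM against 28.3 ± 2.69 CPM. The log2 fold change was 0.78 (SE 0.09, 95% interval 0.59 to 0.97, edgeR adjusted p = 7.91e-07). At 1.72-fold the difference passed the adjusted p and not the fold criterion.

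JUN (ENSG00000177606.6_2; chromosome 1, 59242517 to 59249720, minus strand), the founding AP-1 subunit, had 1917 and 1787 counts in the LNCaP95 libraries against 1728 and 1563 in LN95(KO). On the CPM scale the groups overlapped. The log2 fold change was -0.14 (SE 0.06, 95% interval -0.27 to -0.0017, edgeR adjusted p = 0.0753). The adjusted p of JUN depended on the setting: it was 0.0263 with upper quartile factors, 0.0400 with no filter and 0.00698 without LN95(KO) replicate 3, and between 0.0661 and 1 under the other alternatives, at a fold change below 2 in each. JUNB (ENSG00000171223.5_2; chromosome 19, 12902300 to 12904129, plus strand), a weaker activator than JUN, had 378 and 339 counts against 323 and 321. Its libraries did not overlap between groups, by a small margin. The log2 fold change was -0.12 (SE 0.09, 95% interval -0.32 to 0.08, edgeR adjusted p = 0.283). Of the exon bases of JUNB, 14.2% lie under exons of HOOK2 on the other strand, and reads that fall on both genes are left out of the counts of either. JUND (ENSG00000130522.5_3; chromosome 19, 18390504 to 18392432, minus strand), the most constitutively expressed JUN gene, had 2436 and 2284 counts against 2426 and 2294. The groups overlapped, and the log2 fold change was 0.03 (SE 0.06, 95% interval -0.09 to 0.15, edgeR adjusted p = 0.628). The intervals of all 3 JUN genes lie within a change of 0.32 on the log2 scale in either direction, well short of the fold criterion.

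**Figure D2:**
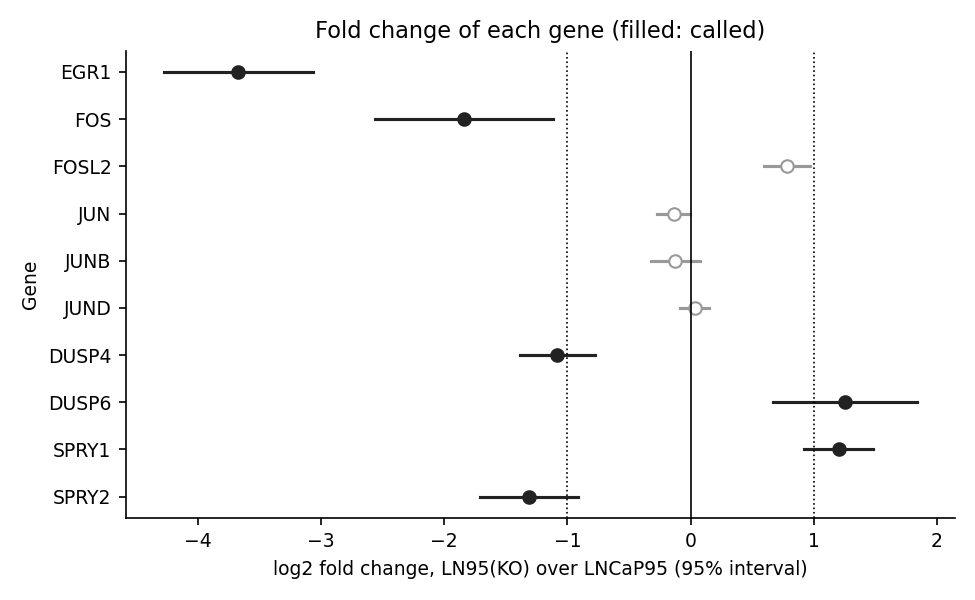
Log2 fold change of each of the 10 genes, LN95(KO) over LNCaP95, from the edgeR fit, with its 95% interval as a line and 2-fold changes dotted. Filled points are the 6 called genes, of which EGR1 has the lowest value at -3.67 and DUSP6 the highest at 1.26, and the 3 JUN genes lie between -0.14 and 0.03.

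DUSP4 (ENSG00000120875.8_2; chromosome 8, 29190581 to 29208201, minus strand) encodes a nuclear phosphatase of ERK and of the stress kinases. It had 186 and 178 counts in the LNCaP95 libraries against 87 and 81 in LN95(KO). The 2 libraries within each group lay close together, and the groups were far apart. The level fell from 9.90 ± 0.254 CPM to 4.68 ± 0.337 CPM. This fall was 2.12-fold, or -1.08 on the log2 scale (SE 0.14, 95% interval -1.39 to -0.78, edgeR adjusted p = 5.20e-06).

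DUSP6 (ENSG00000139318.7_2; chromosome 12, 89741012 to 89746278, minus strand) encodes a cytoplasmic phosphatase that is selective for ERK. It had 17 and 27 counts in the LNCaP95 libraries against 57 and 46 in LN95(KO). The 2 LN95(KO) libraries were higher than both LNCaP95 libraries. The level rose from 1.20 ± 0.391 CPM to 2.87 ± 0.495 CPM. This rise was 2.39-fold, or 1.26 on the log2 scale (SE 0.28, 95% interval 0.67 to 1.84, edgeR adjusted p = 0.000847). With DESeq2 it was again 1.26, with a wider SE of 0.50 and an adjusted p nearer the threshold (DESeq2 adjusted p = 0.0350). Without LNCaP95 replicate 1 the log2 fold change was 0.96 and DUSP6 was no longer called. Of its exon bases, 28.6% lie under an annotated gene on the other strand, ENSG00000274021, which had 0 counts in every library, and reads that fall on both genes are left out of the count of DUSP6.

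SPRY1 (ENSG00000164056.10_2; chromosome 4, 124317950 to 124324915, plus strand) encodes a Sprouty inhibitor of receptor signalling. It had 103 and 93 counts in the LNCaP95 libraries against 222 and 220 in LN95(KO). Replicates were nearly equal within each group. The level rose from 5.33 ± 0.356 CPM to 12.3 ± 0.345 CPM. This rise was 2.31-fold, or 1.21 on the log2 scale (SE 0.13, 95% interval 0.92 to 1.49, edgeR adjusted p = 5.34e-07). SPRY2 (ENSG00000136158.11_3; chromosome 13, 80910111 to 80915261, minus strand), its paralog, had 145 and 166 counts in the LNCaP95 libraries against 74 and 48 in LN95(KO). Both LN95(KO) libraries were lower, with a wider gap between them than in SPRY1. The level fell from 8.46 ± 0.854 CPM to 3.41 ± 1.10 CPM. This fall was 2.49-fold, or -1.31 on the log2 scale (SE 0.19, 95% interval -1.71 to -0.92, edgeR adjusted p = 1.22e-05). The intervals of SPRY1 and SPRY2 lie on opposite sides of 0, as do those of DUSP6 and DUSP4. When a change of more than 2-fold was itself tested (glmTreat of edgeR), EGR1 and FOS passed, and DUSP4, DUSP6, SPRY1 and SPRY2 did not, with log2 fold changes whose intervals reach inside 2-fold.

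Levels were then compared between genes per length, as RPKM, which are the same CPM divided by the length of merged exons in kilobases. That length includes bases shared with another gene, 28.6% for DUSP6 and 14.2% for JUNB. Reads on both genes were not counted, so the RPKM of DUSP6 and JUNB may be too low. Averaged over the 4 libraries, JUND was highest at 67.3 RPKM, followed by JUN at 26.5 and JUNB at 10.2 RPKM, and the ranges of these 3 genes did not overlap. FOSL2 came next at 5.38 RPKM, then FOS at 2.59, SPRY1 at 2.22, SPRY2 at 1.85, EGR1 at 1.05, DUSP4 at 1.00 and DUSP6 at 0.527 RPKM, and from FOSL2 on each gene's range over the 4 libraries overlapped that of the next. JUND, JUN and JUNB held ranks 1, 2 and 3 in both groups. EGR1 went from rank 7 in LNCaP95 to rank 10 in LN95(KO), FOS from 4 to 6, and SPRY2 from 6 to 7. SPRY1 went from rank 9 to 5, FOSL2 from 5 to 4, DUSP6 from 10 to 8, and DUSP4 from 8 to 9. Some of these ranks rest on overlapping libraries: within LNCaP95 the range of FOS overlapped that of FOSL2, and that of DUSP4 overlapped that of SPRY1. Within LN95(KO) the ranges of FOS, SPRY2 and DUSP6 overlapped one another, and that of DUSP6 also overlapped that of DUSP4, so the order among these genes is not resolved.

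Shares within a family do not depend on how libraries are scaled. The families were chosen after their values were seen, and the shares are a description. Of the summed RPKM of FOS, FOSB, FOSL1 and FOSL2, FOS held 52.1% and 41.8% in the LNCaP95 libraries and 16.5% and 9.89% in LN95(KO). FOSL2 held 41.7% and 50.8% in LNCaP95 against 78.8% and 85.1% in LN95(KO). The sum itself was 8.84 and 8.32 RPKM in LNCaP95 and 9.37 and 7.31 RPKM in LN95(KO), and overlapped. The JUN family hardly shifted, with JUND at 63.2% and 63.6% in LNCaP95 against 65.8% and 66.2% in LN95(KO).

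Among SPRY1, SPRY2 and SPRY4, SPRY1 held 36.2% and 30.9% of summed RPKM in LNCaP95 against 69.4% and 78.0% in LN95(KO). SPRY2 held 62.9% and 67.9% in LNCaP95 against 28.5% and 21.0% in LN95(KO). The leading Sprouty RNA was SPRY2 in LNCaP95 and SPRY1 in LN95(KO), while the sum overlapped at 3.89 and 4.15 against 4.56 and 3.90 RPKM. Of the summed RPKM of the cytoplasmic ERK phosphatases DUSP6, DUSP7 and DUSP9, DUSP6 made up 2.57% and 3.81% in LNCaP95. In LN95(KO) it made up 6.84% and 4.76%. That sum was 9.29 and 10.0 RPKM in LNCaP95 and 12.2 and 13.7 RPKM in LN95(KO). DUSP9 held 46.5% and 43.8% of it in LNCaP95 against 60.0% and 61.5% in LN95(KO). DUSP7 held 50.9% and 52.4% against 33.2% and 33.8%. DUSP4 made up 3.68% and 3.74% of the inducible nuclear phosphatases DUSP1, DUSP2, DUSP4 and DUSP5 in LNCaP95 against 2.63% and 2.85% in LN95(KO). Their sum was 37.7 and 35.7 RPKM in LNCaP95 and 25.7 and 21.4 RPKM in LN95(KO). Most of that gap was DUSP5, at 33.5% and 33.3% of the sum in LNCaP95 against 2.69% and 2.63% in LN95(KO).

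**Figure D3:**
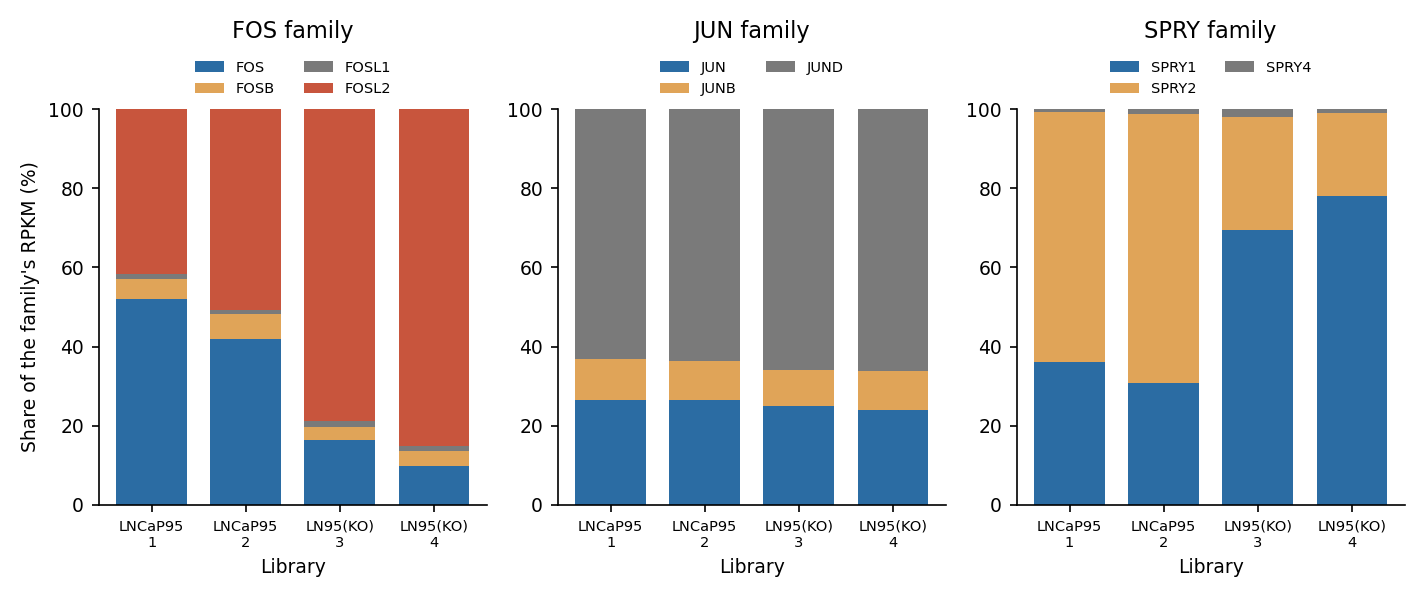
Share of the summed RPKM of each family held by each gene, per library, for the FOS family, the JUN family and SPRY1, SPRY2 and SPRY4. FOSL2 and SPRY1 hold the largest share of their family in both LN95(KO) libraries, at least 78.8% and 69.4%, and the JUN family has nearly the same makeup in all 4 libraries.

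The other genes of the pathway were read from 7 lists with 119 genes, of which 102 were tested and 16 called, or 15.7%, close to the 18% of all genes. Of 14 other AP-1 and EGR family genes, 9 were tested and 1 was called lower, with a list median of -0.29 on the log2 scale. The called gene was NAB1, a corepressor of EGR factors, with 167 and 177 counts in the LNCaP95 libraries against 69 and 81 in LN95(KO) (log2 fold change -1.16, adjusted p = 3.76e-06, edgeR), and 12.3% of its exon bases lie under another gene.

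Of 27 other immediate early genes, 23 were tested, with 4 called higher, 2 called lower and a median of -0.12. The nuclear receptor NR4A2 fell from 160 and 139 counts to 21 and 31 (log2 fold change -2.49, adjusted p = 1.20e-08, edgeR). ID2, an inhibitor of helix-loop-helix factors, fell by 1.17 on the log2 scale, and its relative ID3 rose by 1.10. The growth arrest gene GADD45B rose by 1.37 and the kinase gene SGK1 by 1.34. The largest edgeR adjusted p among these 4 genes was 3.84e-06, that of GADD45B. The sixth called gene, NR4A1, rose from 216 and 221 counts to 508 and 401 (log2 fold change 1.09, with 10.3% of its exon bases under another gene) and is named because it is a paralog of NR4A2, a choice made after its values were seen. As with the 10 genes, called immediate early genes thus lay in both directions.

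Of 17 other ERK feedback inhibitors, 15 were tested, with 1 called higher, 1 called lower and a median of 0.22. DUSP5, a nuclear phosphatase specific for ERK, had 591 and 553 counts in the LNCaP95 libraries against 31 and 26 in LN95(KO) (log2 fold change -4.29, SE 0.14, adjusted p = 4.84e-14, edgeR). Its 95% interval, -4.58 to -3.99, lies below that of DUSP4. SPRED1, a Sprouty-related inhibitor of RAS, rose from 274 and 254 counts to 560 and 573 (log2 fold change 1.13, adjusted p = 5.73e-09, edgeR).

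Of 12 other ERK output genes, 9 were tested, with 2 called higher, none called lower and a median of 0.28. The receptor gene EPHA2 rose from 141 and 122 counts to 404 and 380 (log2 fold change 1.61, adjusted p = 1.68e-09, edgeR), and the ETS factor gene ETV4 rose from 10 and 9 to 20 and 32 (log2 fold change 1.47, adjusted p = 0.00296, edgeR). All 20 genes of the cascade from RAS to ERK and its RSK and MSK kinases were tested, 1 was called in each direction, and the median was 0.05. RPS6KA5 rose by 1.19 and RPS6KA3 fell by 1.16 on the log2 scale (edgeR adjusted p = 1.73e-07 and 4.30e-08). Of 18 genes for SRF, its partners and stress MAP kinases, 17 were tested and 1 was called in each direction (median -0.07): MAP2K6 rose by 1.65 and MAPK10, with 19 and 18 counts against 4 and 6, fell by 1.83 (edgeR adjusted p = 1.78e-08 and 0.00223). Of 11 heat shock genes, 9 were tested and HSPB1 alone was called, with a log2 fold change of 1.59 (edgeR adjusted p = 6.15e-05, list median 0.14).

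**Figure D4:**
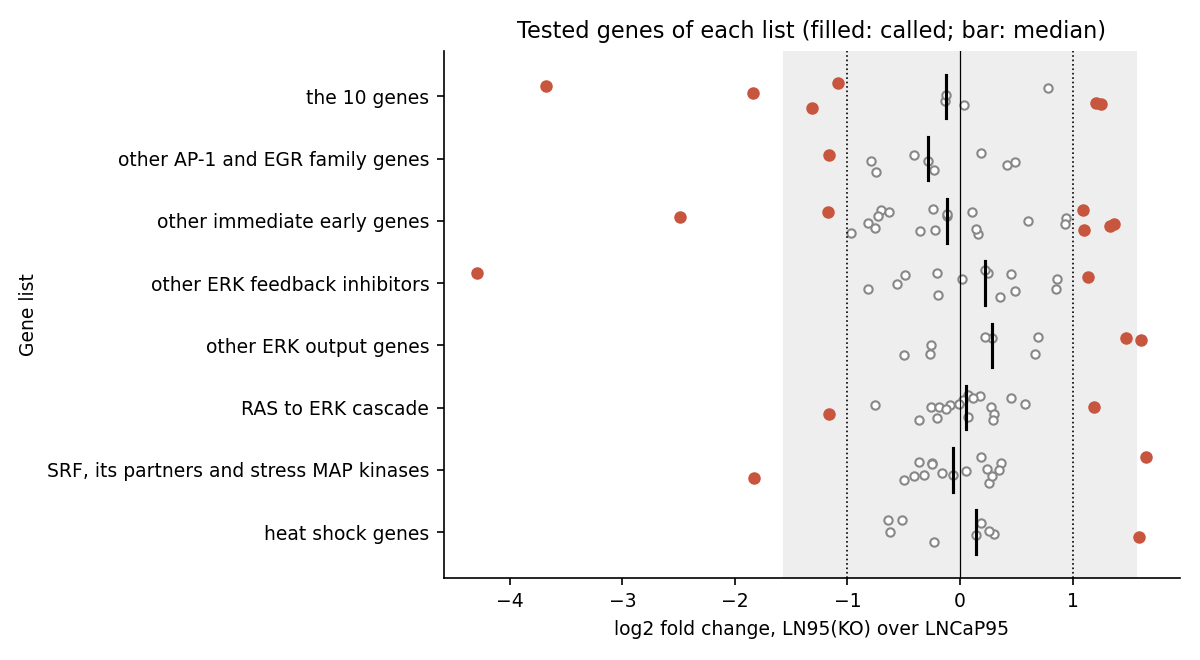
Log2 fold change of every tested gene of the 10 genes described and of 7 related lists, with the median of each list as a bar, called genes filled and 2-fold changes dotted. The grey band spans the 5th to the 95th percentile of all genes tested (-1.56 to 1.57), and EGR1, FOS, DUSP5, NR4A2 and MAPK10 lie below it, with EPHA2, MAP2K6 and HSPB1 above it.

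Genes with the most similar profiles over the 4 libraries were ranked by Euclidean distance between log2 CPM values (pseudocount 0.5) centred on their mean, among 11855 protein-coding genes. Nearest to EGR1 were LRRN2 (distance 0.109, with 191 and 170 counts against 21 and 14), PLD1 (0.127) and MT1G (0.158). Nearest to FOS were LRRC8C (0.125), DNAH10 (0.334) and PDE2A (0.357). Beyond LRRC8C, the neighbours of FOS lay farther from it than any of those listed for the other called genes. Nearest to DUSP4 were ZC4H2 (0.0172), SLC41A2 (0.0187) and DZIP3 (0.0227), and nearest to SPRY2 were CACNA1D (0.0996), DIO3 (0.103) and SCAMP5 (0.142). DUSP6 was nearest to ADRB1 (0.133), PIK3R5 (0.145) and PHLDB2 (0.159). SPRY1 was nearest to CMTM7 (0.0168), and next to 2 genes of the lists above, RPS6KA5 (0.0409) and SPRED1 (0.0464). Each distance rests on 4 libraries in 2 groups.

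The 10 genes also differed between the replicates of LN95(KO). Each of the 10 was lower in replicate 4 than in replicate 3, where 49.0% of all genes tested were lower, and the median log2 ratio of replicate 4 over 3 was -0.22 for the 10 genes and 0.0029 for all genes. With library totals in place of TMM factors all 10 were again lower, against 51.4% of all genes. FOS differed most, by -0.95 on the log2 scale (pseudocount 0.5), and 0.0896% of all genes tested had a lower ratio. SPRY2 followed at -0.58 (1.52% of genes lower) and EGR1 at -0.44 (3.55% of genes lower). Between the LNCaP95 replicates, 7 of the 10 genes were lower in replicate 2, where 49.5% of all genes tested were lower. Of the 23 other immediate early genes tested, 15 were lower in LN95(KO) replicate 4 and 16 in LNCaP95 replicate 2. These are values of single libraries, given with no test, and their cause was not tested. EGR1, FOS and SPRY2 were lower in LN95(KO) replicate 3 alone than in both LNCaP95 libraries.

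**Figure D5:**
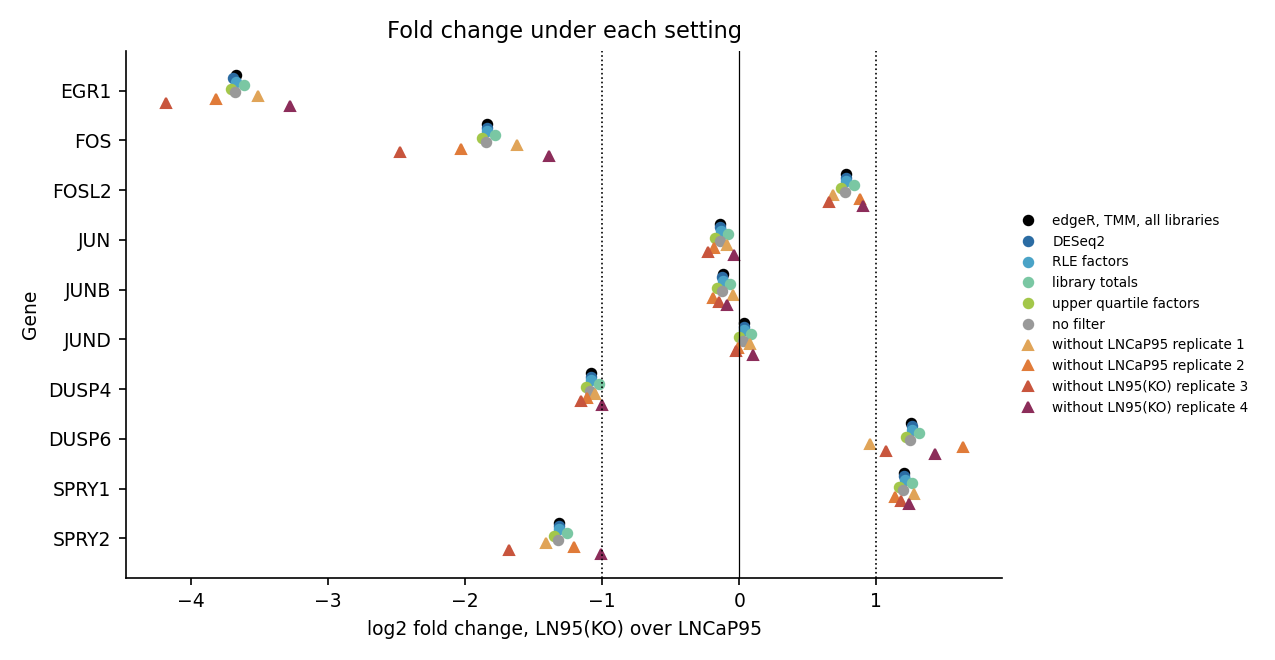
Log2 fold change of each of the 10 genes under the edgeR fit with TMM factors, DESeq2, other scalings and no filter (circles) and with each library left out (triangles), with 2-fold changes dotted. FOS moves most, from -2.48 to -1.39 with the LN95(KO) libraries left out in turn, and JUND is the only gene of the 10 whose sign changes among these settings.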

How the data were processed

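RNA-Seq was performed on poly(A) RNA of 4 libraries on the DNBseq platform. Raw read counts per gene were deposited. Per the labels and the study's methods, the authors used HISAT2 (version 2.1.0) for alignment to hg19 and htseq with GENCODE release 29 for counting, without strand per the file names. htseq leaves out reads on more than 1 gene. The series table and the single files differed in 0 cells. The 5 summary lines entered neither library sizes nor tests, and gene reads made up 72.5% to 76.2% of entries. Of the gene identifiers, 59859 had a symbol and 1021 had none. Gene coordinates came from a later GENCODE release on GRCh37, and the promoter windows from RefSeq on GRCh38.p14.

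Counts were fitted in R (version 4.3.3) with edgeR (version 4.0.16), using robust quasi-likelihood tests, TMM factors, no covariate and genes kept by filterByExpr (minimum count 10, minimum total 15). P-values were Benjamini-Hochberg adjusted over 15626 genes. The common biological coefficient of variation was 4.27%. Alternatives were DESeq2 (version 1.42.0), other scalings, no filter, glmTreat, no fold criterion and each library left out. Permutation tests were not run, since 2 libraries against 2 allow no two-sided p below 0.333. The floor of 3 counts covers counting error only.

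The 10 genes and all lists were chosen with earlier results of these data known. Named were the 10 genes, UGT2B17, up to 5 called genes of each list by absolute log2 fold change, and the 3 nearest profiles of each called gene (mean of at least 1 CPM). Other names were chosen after their values were seen. Columns of per-sample values not used numbered 0. The leukocyte marker list is not reported here.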

Additional observations from a re-analysis of the deposited data

Results flagged for a closer look

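The share of reads not aligned was higher in both LN95(KO) libraries than in both LNCaP95 libraries, with a lowest value of 7.71% in LN95(KO). It lies outside the gene counts and was looked at because it differs between the groups. Its part in the differences of EGR1, FOS and the feedback genes was not tested.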

How the results depend on the processing

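With 2 libraries in each group, the p-values rest on a spread shared across genes, and EGR1 and DUSP6 rest on few counts in 1 group. The SE from DESeq2 was larger than the one derived from edgeR for each of the 10 genes. It was 0.50 against 0.29 for EGR1 and 0.26 against 0.14 for DUSP4. EGR1, FOS and UGT2B17 stayed called under all 11 alternatives, with log2 fold changes of -4.19 to -3.28, -2.48 to -1.39 and -7.09 to -6.98 when 1 library was left out. Testing against 2-fold with glmTreat left 1687 genes called, 2 of the 10 genes, and none of DUSP4 (-1.08), DUSP6 (1.26), SPRY1 (1.21) and SPRY2 (-1.31). Adjusted p alone called 9349 genes, FOSL2 (0.78) among them. Without 1 library, 2539 to 2777 genes and 5 to 6 of the 10 were called, the fall to 5 being DUSP6 (0.96 to 1.63) without LNCaP95 replicate 1. JUND changed sign with upper quartile factors (-0.0048) and without LNCaP95 replicate 2 (-0.0076) or LN95(KO) replicate 3 (-0.0256), in a left-out range of -0.03 to 0.10. The median log2 fold change of all genes was 0.047 with library totals and -0.047 with upper quartile factors, against -0.01 with TMM factors. JUN passed the adjusted p with upper quartile factors (0.0263), with no filter (0.0400) and without LN95(KO) replicate 3 (0.00698), below the fold criterion. The rank of the 10 genes by RPKM did not change with RLE factors or library totals.

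With glmTreat the lists had 0 (AP-1 and EGR), 2 (immediate early), 1 (feedback), 1 (ERK output), 0 (RAS to ERK) and 1 (SRF and stress kinases) called genes. Without the fold criterion they had 6, 19, 12, 5, 14 and 13, and the heat shock genes 6. DESeq2 called 1 ERK output gene and 1 gene of the SRF and stress kinase list. ERK output genes numbered 1 to 2 when 1 library was left out, with 1 called without LN95(KO) replicate 4. No paired analysis was possible because LNCaP95 carries replicate numbers 1 and 2 and LN95(KO) 3 and 4. Where a group was left with 1 library, it was assumed to vary like the other group.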
